A study of Mus with 8 samples.

Results

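The 10 genes described here, Mdm2, Ccng1, Sesn1, Zmat3, Phlda3, Trp53inp1, Bbc3, Pmaip1, Gdf15 and Gadd45a, are established transcriptional targets of p53, listed without Cdkn1a, the gene of p21. They were chosen by gene symbol, and each symbol had exactly 1 of the 22206 transcript clusters (the array's unit for a gene) in the deposited tables. The cells were B16F10, a pigmented mouse melanoma line. Of the 8 samples, 4 were labelled as treated with 2 µM Butyroside D for 48 h and 4 as kept in medium alone for 48 h, each on 1 Mouse Clariom S array. Although the treatment note of the medium samples mentions 0.2 µM of the compound, they are titled as controls and were used as such. All samples come from 1 cell line. Nothing in the labels tells whether the 4 arrays of a group were separate cultures, and p-values then cover only the spread between arrays, which may be technical.

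p53 is a transcription factor that is stabilised by DNA damage and other stress and switches on genes that halt the cell cycle, repair damage, restrain growth signalling or start apoptosis. Mdm2 is both its target and the ubiquitin ligase that degrades it, so that the pathway holds itself in check. Several of the targets, among them Gdf15, Gadd45a, Bbc3, Pmaip1 and Trp53inp1, are also known to respond to other stress factors such as ATF4 or its partner CHOP.

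All values are log2 signals, on which a difference of 1 is a doubling. The median over transcript clusters lay between 5.30 and 5.44 in the 8 arrays. The median of the antigenomic background probes, which match no mouse sequence, lay between 4.69 and 5.17. Arrays 1 and 2 of each group, and arrays 3 and 4 of each group, formed close pairs (correlations across transcript clusters of 0.997 to 0.998 within pairs and 0.986 to 0.993 between them), so 4 arrays of a group hold less information than 4 independent samples. The melanocyte markers Tyr, Tyrp1, Dct, Pmel, Mlana, Mitf and Sox10 were all above background. Of 5 measured fibroblast markers only Col1a1 was, and of 4 keratinocyte, 5 leukocyte and 4 endothelial markers 0 were.

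None of the p53 targets differed between Butyroside D and medium beyond the spread between arrays. Limma with Benjamini-Hochberg adjustment over all transcript clusters called 0 of the 10 at an adjusted p under 0.05, where it called 0.117% of all transcript clusters. At an unadjusted p under 0.05 it also called 0 of the 10, against 17.9% of all. This count depended on the fit. It was 0 with quantile normalization added, 2 with arrays centred on their median and 3 with equal replicate numbers as a block. Over all 22206 transcript clusters those fits gave 4050, 4088 and 4320. For 0 of the 10 did the 4 Butyroside D arrays lie wholly above or below the 4 medium arrays, a state found in 12.9% of all transcript clusters. The median difference of the 10 was 0.03 on the log2 scale, against 0.01 over all transcript clusters, with 6 positive and 4 negative. In RNA from whole cultures, a difference in every cell and a difference in the share of cells that make a transcript cannot be told apart.

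The group means conceal a division within the Butyroside D arrays for some of the 10 genes, and within the medium arrays for others. The genes are therefore given array by array, ordered by what they do. Of the 10, 7 had a mean over the 8 arrays above the highest background median of 5.17, and 3 (Bbc3, Pmaip1 and Gdf15) did not.

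**Figure D1:**
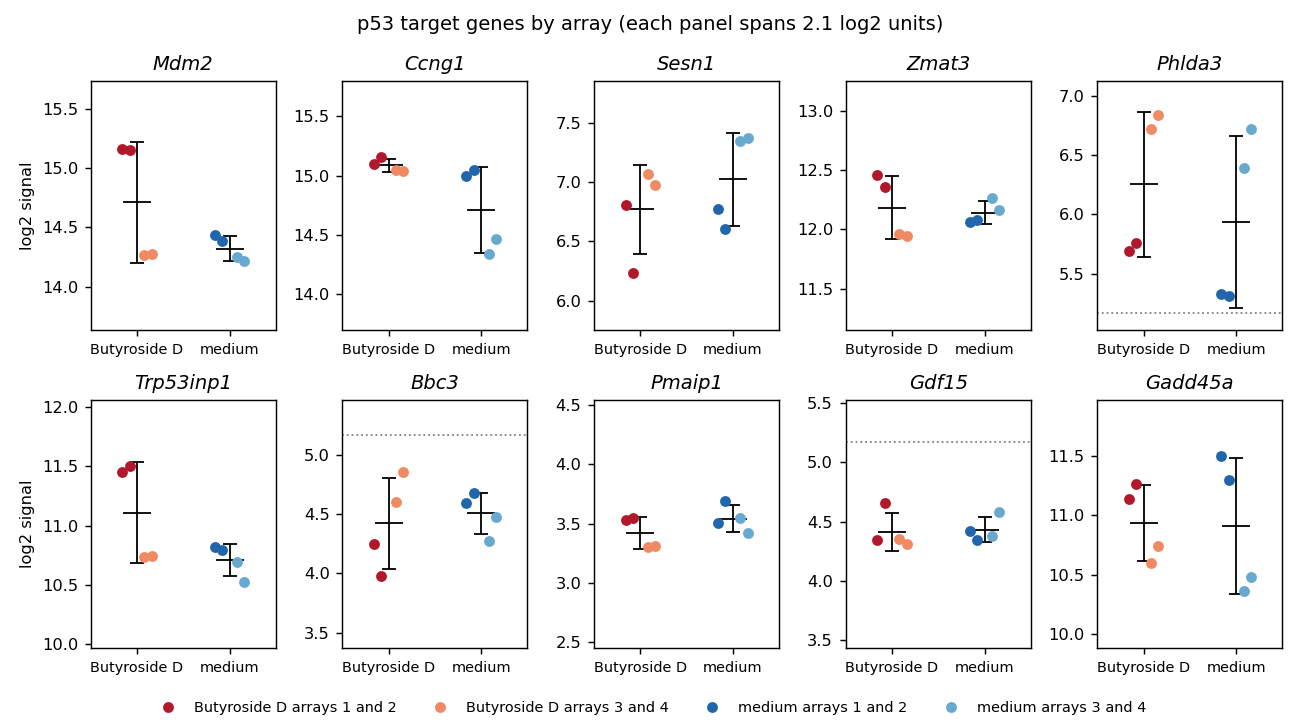
Log2 signal of each p53 target gene in the 4 Butyroside D arrays (left) and the 4 medium arrays (right) of its panel, coloured by close pair, with the group mean and SD in black and the highest background median, 5.17, as a dotted line where it falls in the panel. Mdm2, Trp53inp1 and Zmat3 divide by pair chiefly in the Butyroside D arrays, with smaller gaps in medium. Ccng1 divides chiefly in the medium arrays, and Phlda3, Sesn1 and Gadd45a divide in both groups.

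Among the regulators of p53 itself, Mdm2 had signals of 15.16, 15.15, 14.26 and 14.28 in Butyroside D arrays 1 to 4, against 14.43, 14.39, 14.25 and 14.21 in medium arrays 1 to 4. Butyroside D arrays 1 and 2 stood above all medium arrays, while Butyroside D arrays 3 and 4 lay within the medium range. The group means were 14.71 ± 0.51 with Butyroside D and 14.32 ± 0.11 in medium (SD, n = 4 each), a difference of 0.39 ± 0.23 (SE; 95% interval -0.12 to 0.90) with an adjusted p of 0.394 (limma).

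Trp53inp1, a nuclear protein that takes part in p53-driven apoptosis and in autophagy, had the same arrangement. Its signals were 11.45, 11.50, 10.74 and 10.74 in Butyroside D arrays 1 to 4, against 10.82, 10.79, 10.69 and 10.52 in medium arrays 1 to 4. Again only Butyroside D arrays 1 and 2 left the medium range. The means were 11.11 ± 0.43 with Butyroside D and 10.71 ± 0.13 in medium (SD, n = 4 each), and the difference of 0.40 ± 0.20 (SE; 95% interval -0.05 to 0.85) had an adjusted p of 0.332 (limma).

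Zmat3, a zinc finger protein that binds RNA and governs splicing and transcript stability, had 12.46, 12.36, 11.96 and 11.94 in Butyroside D arrays 1 to 4, against 12.06, 12.08, 12.27 and 12.16 in medium arrays 1 to 4. Here Butyroside D arrays 1 and 2 lay above every medium array and Butyroside D arrays 3 and 4 below every one, so that the mean difference was 0.04 ± 0.15 (SE; adjusted p = 0.916, limma).

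Ccng1 encodes cyclin G1, which recruits a phosphatase that acts on the MDM2 protein. Its signals were 15.10, 15.16, 15.04 and 15.04 in Butyroside D arrays 1 to 4, against 15.00, 15.05, 14.34 and 14.47 in medium arrays 1 to 4. The Butyroside D arrays were alike, and the division lay in the medium group, where arrays 1 and 2 were near the Butyroside D level and arrays 3 and 4 were lower. With 15.09 ± 0.05 in Butyroside D and 14.71 ± 0.36 in medium (SD, n = 4 each), the difference was 0.37 ± 0.18 (SE; 95% interval -0.02 to 0.77). Its adjusted p of 0.305 was the smallest of the 10 (limma).

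Among the targets that restrain growth signalling, Phlda3, a PH-domain protein that competes with AKT for membrane lipids, had 5.69, 5.75, 6.72 and 6.84 in Butyroside D arrays 1 to 4, against 5.33, 5.31, 6.40 and 6.72 in medium arrays 1 to 4. Arrays 3 and 4 were the higher pair in both groups, by 1.06 among the Butyroside D arrays and by 1.24 among the medium arrays, a gap wider than the difference between the groups. The difference of 0.31 ± 0.38 (SE; 95% interval -0.54 to 1.17) had an adjusted p of 0.697 (limma). Set against the medium arrays of the same numbers, the means of the Butyroside D pairs were higher by 0.40 for arrays 1 and 2 and by 0.22 for arrays 3 and 4.

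Sesn1 encodes sestrin 1, a stress protein that dampens mTORC1. Its signals were 6.80, 6.24, 7.07 and 6.97 in Butyroside D arrays 1 to 4, against 6.77, 6.60, 7.35 and 7.37 in medium arrays 1 to 4. As with Phlda3, arrays 3 and 4 were the higher pair in each group. The difference was -0.25 ± 0.24 (SE; 95% interval -0.78 to 0.27; adjusted p = 0.600, limma).

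Gadd45a, which binds PCNA and stress kinases in the growth arrest after DNA damage, had 11.14, 11.27, 10.59 and 10.75 in Butyroside D arrays 1 to 4, against 11.50, 11.30, 10.36 and 10.48 in medium arrays 1 to 4. Arrays 1 and 2 were the higher pair in both groups, the opposite of Phlda3 and Sesn1, with the lowest and the highest signals both in medium. The means were 10.94 ± 0.32 with Butyroside D and 10.91 ± 0.57 in medium (SD, n = 4 each), and the difference was 0.03 ± 0.27 (SE; 95% interval -0.58 to 0.64; adjusted p = 0.970, limma).

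The remaining genes were at background. Bbc3, which encodes the BH3-only death protein PUMA, had 4.25, 3.98, 4.60 and 4.86 in Butyroside D arrays 1 to 4, against 4.60, 4.68, 4.28 and 4.48 in medium arrays 1 to 4, and exceeded the background median of its own array in 1 of the 8. Pmaip1, the gene of the BH3-only protein NOXA, lay between 3.30 and 3.54 with Butyroside D and between 3.42 and 3.69 in medium. Gdf15, a secreted stress cytokine, lay between 4.31 and 4.65 with Butyroside D and between 4.35 and 4.58 in medium. Pmaip1 and Gdf15 were below the background median of their own array in all 8, so their differences of -0.12 ± 0.13 and -0.02 ± 0.13 (SE) give no size of a change, and neither does that of Bbc3, -0.09 ± 0.20 (SE). Their adjusted p values were 0.648 for Pmaip1, 0.963 for Gdf15 and 0.846 for Bbc3 (limma).

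**Figure D2:**
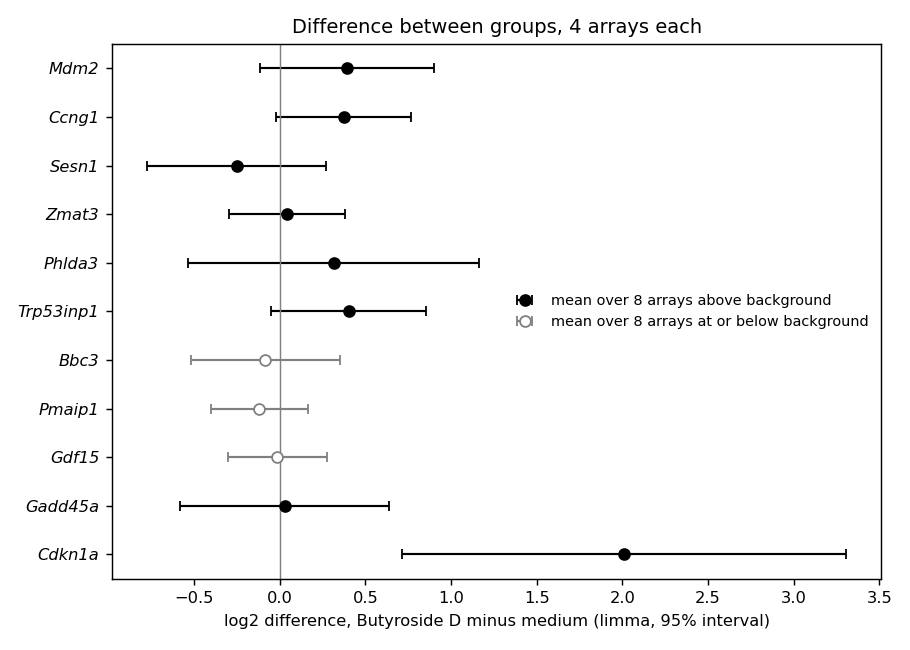
Log2 difference, Butyroside D minus medium, of the p53 target genes and of Cdkn1a, with 95% intervals from limma (4 arrays per group) and open points for genes whose mean was at or below background. The intervals of all 10 targets include 0, while that of Cdkn1a runs from 0.71 to 3.31. The intervals take the 4 arrays of a group as independent.

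Set beside these 10, Cdkn1a had 13.31, 13.40, 10.77 and 10.81 in Butyroside D arrays 1 to 4, against 10.13, 10.18, 10.01 and 9.94 in medium arrays 1 to 4. It shares with Mdm2 and Trp53inp1 the high signal in Butyroside D arrays 1 and 2, at a larger size (3.29 above the medium mean, against 0.83 for Mdm2 and 0.77 for Trp53inp1), and unlike them it was above the medium range in arrays 3 and 4 as well, by 0.73 over the medium mean. Its adjusted p was 0.136 (limma).

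The Butyroside D pairs were compared with the medium arrays for all 10 targets. Butyroside D arrays 1 and 2 both lay above all 4 medium arrays for 4 of the 10 (Mdm2, Trp53inp1, Zmat3 and Ccng1), against 27.4% of all transcript clusters, and both below for 1 (Bbc3, at background), against 23% of all. Butyroside D arrays 3 and 4 both lay above all medium arrays for 1 (Phlda3), against 18.9% of all, and both below for 2 (Zmat3, and Pmaip1 at background), against 19.3%. For Phlda3 the margin was narrow, 6.722 in Butyroside D array 3 against 6.718 in medium array 4. The median difference of the 10 from the medium mean was 0.17 for Butyroside D arrays 1 and 2 and -0.03 for arrays 3 and 4. Over all transcript clusters these medians were 0.04 and -0.01.

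Whether a target was called depended on which Butyroside D arrays entered the fit. Without Butyroside D arrays 3 and 4, limma called 2 of the 10, Mdm2 at 0.83 (adjusted p = 0.00431) and Trp53inp1 at 0.77 (adjusted p = 0.00688), but in that fit it called 24.8% of all transcript clusters. Without Butyroside D arrays 1 and 2 it called 0 of the 10, with Mdm2 at -0.05 and Trp53inp1 at 0.03, against 3.97% of all. These fits set 1 close pair of Butyroside D arrays against both medium pairs, so the spread between pairs of treated arrays is not in them.

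**Figure D3:**
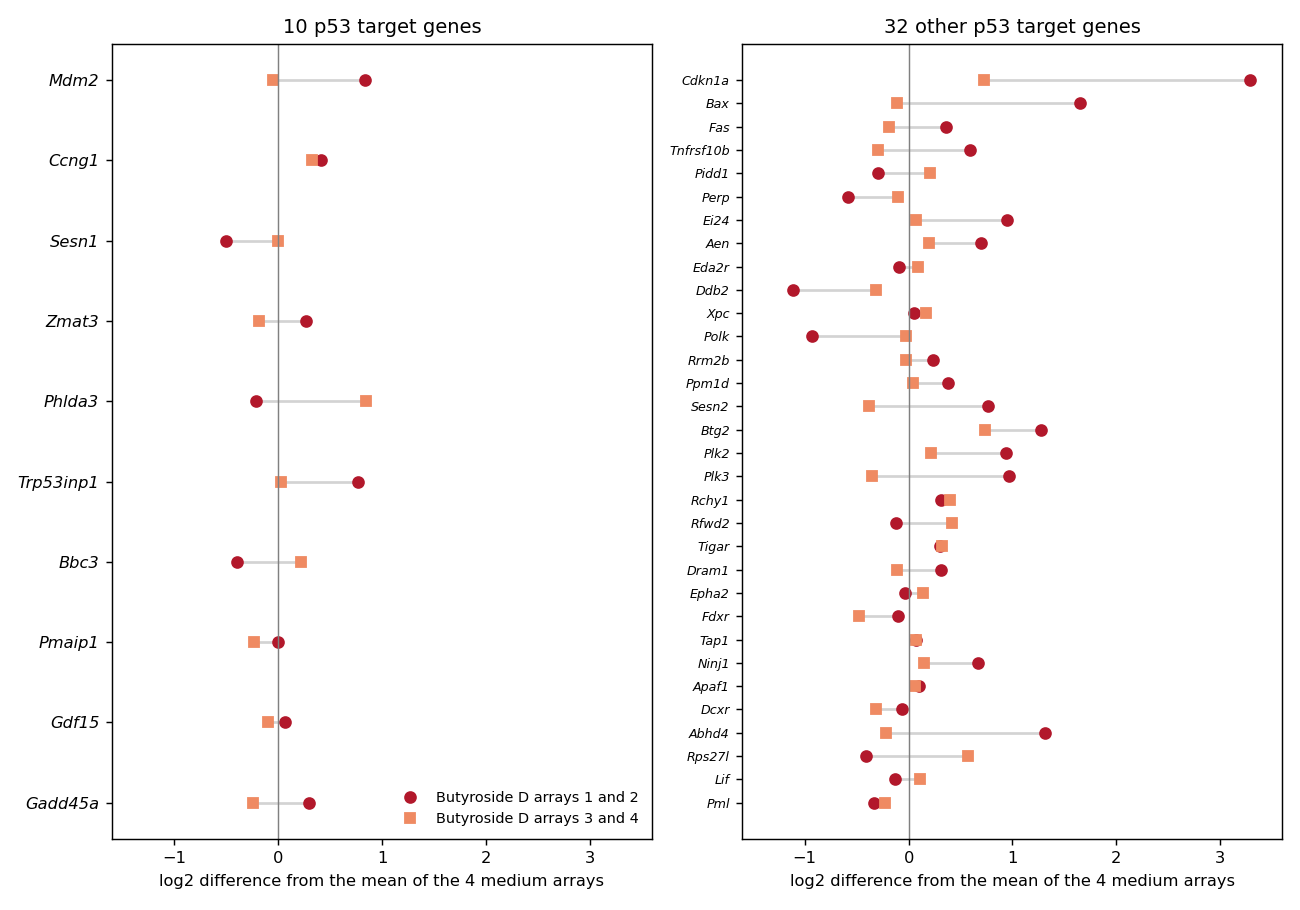
Log2 difference of the mean of Butyroside D arrays 1 and 2 (circles) and of arrays 3 and 4 (squares) from the mean of the 4 medium arrays, for the 10 p53 target genes (left) and 32 other p53 target genes (right). On the left the circles of Mdm2 (0.83) and Trp53inp1 (0.77) lie farthest to the right and the square of Phlda3 (0.84) stands apart from its circle (-0.22). For Phlda3, medium arrays 3 and 4 were likewise above medium arrays 1 and 2. On the right Cdkn1a has the widest gap.

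A second list held 32 other genes known as p53 targets, Cdkn1a among them, of which 25 had a mean above background. It was written with earlier results of these data known. Limma called 0 of the 32 at an adjusted p under 0.05, and 6 higher and 1 lower at an unadjusted p under 0.05 (18.8% and 3.13% of the list, against 9.84% and 8.07% of all transcript clusters). The median difference was 0.11, with 23 of 32 positive (11443 of 22206 over all transcript clusters). It was 0.27 for Butyroside D arrays 1 and 2 and 0.06 for arrays 3 and 4, each against all medium arrays. Without Butyroside D arrays 3 and 4, 11 of the 32 were called higher and 3 lower, against 13.9% and 10.8% of all transcript clusters. Without arrays 1 and 2, 2 were called higher and 0 lower, against 2.14% and 1.82% of all.

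Within this list Btg2, an antiproliferative gene, was nearest to the threshold. It had 6.03, 6.27, 5.67 and 5.56 in Butyroside D arrays 1 to 4, against 4.69, 4.87, 4.98 and 4.97 in medium arrays 1 to 4, a difference of 1.00 ± 0.17 (SE; adjusted p = 0.0611, limma). All 4 Butyroside D arrays were above all medium arrays, but the medium mean of 4.88 was within the background medians, so no size can be read from it. The adjusted p of Btg2 was 0.0409 when arrays were centred on their medians and 0.0489 when dim transcript clusters were left out, and between 0.00215 and 0.999 over all alternatives in the arrays.

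Rchy1, which encodes a ubiquitin ligase that acts on p53, was at 12.28 ± 0.06 with Butyroside D and 11.92 ± 0.08 in medium (SD, n = 4 each), with no overlap between the groups and little difference between the Butyroside D pairs (adjusted p = 0.162, limma). Ddb2, a sensor of ultraviolet damage, had means of 6.24 ± 0.48 with Butyroside D and 6.95 ± 0.27 in medium (SD, n = 4 each; adjusted p = 0.180, limma), with the lowest signals in Butyroside D arrays 1 and 2. Bax, a pore-forming death protein named after its values were seen, had 12.76, 12.84, 10.94 and 11.13 in Butyroside D arrays 1 to 4, against 10.90, 11.00, 11.37 and 11.30 in medium arrays 1 to 4. Its pair arrangement was that of Mdm2, with a mean difference of 0.77 ± 0.42 (SE; adjusted p = 0.360, limma). The list as a whole did not share it. In Butyroside D arrays 1 and 2, 20 of the 32 genes were above the medium mean, against 11851 of 22206 transcript clusters. Others lay below it, such as Ddb2 (-1.11) and Polk (-0.93).

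Of 16 genes for p53 and its regulators, limma called 0, with 2 higher and 2 lower at an unadjusted p under 0.05 (12.5% of the list each, against 9.84% and 8.07% of all transcript clusters). Trp53, the gene of p53, had 13.43, 13.61, 12.39 and 12.46 in Butyroside D arrays 1 to 4, against 12.61, 12.64, 11.98 and 11.94 in medium arrays 1 to 4. Arrays 1 and 2 were the higher pair in both groups, and the difference was 0.68 ± 0.31 (SE; adjusted p = 0.278, limma). Set against the medium arrays of the same numbers, the Butyroside D pairs were higher in Trp53 by 0.90 for arrays 1 and 2 and by 0.47 for arrays 3 and 4. Atm, the kinase that signals double-strand breaks to p53, was at 9.48 ± 0.27 with Butyroside D and 10.09 ± 0.17 in medium (SD, n = 4 each), with no overlap between the groups (adjusted p = 0.119, limma). Hipk2, a kinase of p53, was at -0.33 ± 0.14 and Rpl11, a ribosomal protein that binds MDM2, at 0.53 ± 0.22 (difference ± SE), with adjusted p values of 0.249 and 0.252 (limma).

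Genes of the cell cycle that are known to be shut off through p53, p21 and the DREAM complex were read as the other arm of the pathway. Limma called 0 of 12, and 0 higher and 1 lower at an unadjusted p under 0.05 (8.33% of the list lower, against 8.07% of all transcript clusters). The 1 was the proliferation marker Mki67, at -0.47 ± 0.21 (SE; adjusted p = 0.278, limma). In Butyroside D arrays 1 and 2, 12 of 12 were below the medium mean, with a median difference of -0.42, while in arrays 3 and 4, 9 of 12 were above it, with a median of 0.15. Over all 22206 transcript clusters the medians were 0.04 and -0.01, with 11851 and 10806 above the medium mean. The medium arrays were divided too. Their arrays 1 and 2 were above arrays 3 and 4 for only 2 of the 12, with a median gap of -0.22. Set against medium arrays 1 and 2 alone, Butyroside D arrays 1 and 2 were higher in Plk1, Ccna2 and Cdc20 (0.05, 0.02 and 0.03) and lower in the other genes of the list. Butyroside D arrays 3 and 4 were likewise set against medium arrays 3 and 4 alone. They were lower in Plk1 (-0.51), Mki67 (-0.29), Bub1b (-0.21), Ccnb2 (-0.11), Cdc25c (-0.06) and Kif23 (-0.05). They were higher in the other genes of the list. Plk1, Bub1b and Cdc25c, which act in mitotic entry and its checkpoint, were at -0.23 ± 0.15, -0.19 ± 0.13 and -0.22 ± 0.17 (difference ± SE), with adjusted p values of 0.446, 0.468 and 0.527 (limma).

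The ATF4 targets were read as the list of the other stress pathway. That list was written with earlier results of these data known. It holds Atf4 itself and shares Sesn2 with the list of other p53 targets. Limma called 0 of 12 at an adjusted p under 0.05 and 5 higher at an unadjusted p under 0.05 (41.7% of the list, against 9.84% of all transcript clusters). The differences were positive for 12 of 12, with a median of 0.34, against 11443 of 22206 transcript clusters. Ddit3 had 2 transcript clusters, of which only the first was read. Chac1, a glutathione-degrading enzyme, had 10.15, 10.23, 8.48 and 8.65 in Butyroside D arrays 1 to 4, against 8.07, 8.15, 7.90 and 7.66 in medium arrays 1 to 4 (adjusted p = 0.122, limma). Asns, Trib3 and Atf3, which make asparagine, dampen the response and act as a stress transcription factor, were at 0.48 ± 0.15, 0.73 ± 0.26 and 0.64 ± 0.23 (difference ± SE), with adjusted p values of 0.147, 0.194 and 0.196 (limma). The list median was 0.73 for Butyroside D arrays 1 and 2 and 0.19 for arrays 3 and 4, each against all medium arrays. The part of this pathway in the signals of Gdf15, Gadd45a, Bbc3, Pmaip1 and Trp53inp1 was not tested.

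The 10 targets did not follow a single pattern over the arrays. When each was set against the mean profile of the other 9, Pearson's r over the 8 arrays was 0.54 for Trp53inp1, 0.48 for Mdm2, 0.28 for Ccng1 and 0.26 for Zmat3, and -0.79 for Sesn1, -0.73 for Phlda3 and -0.24 for Gadd45a. The genes at background had -0.66 (Bbc3), -0.29 (Pmaip1) and -0.01 (Gdf15). These values describe 8 arrays that form 4 close pairs and share their processing. The mean profile of the 10 was also compared with 7617 other transcript clusters with an SD of at least 0.3. These had 1 symbol each, and predicted, clone and receptor-family gene names were left out. Most like the profile among them were Edar, G6pc3, Esp18, Gstt3, Reln and Fmod, with r between 0.97 and 0.99. Of these only Edar and G6pc3 had a mean above background. That of Edar was 5.20, barely above it, and its medium mean of 4.91 was within the background medians. G6pc3, a glucose-6-phosphatase, was at 10.64, 10.46, 9.82 and 9.83 in Butyroside D arrays 1 to 4, against 9.55, 9.43, 9.04 and 9.45 in medium arrays 1 to 4. Cdkn1a ranked 114 in this order, with r = 0.93. The mean profile of the 10 spans only -0.09 to 0.12, since targets with opposite patterns cancel in it. A high r with it is therefore not likeness to each target. Against single targets, r of Cdkn1a was highest for Trp53inp1 (0.96) and Mdm2 (0.95) and lowest for Bbc3 (-0.66) and Sesn1 (-0.64).

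The authors' deposited table of the comparison gives other treated values for these genes. Treated averages of the authors' deposited table were within 0.01 of a biweight mean of the 4 Butyroside D arrays for 0 of the 10 genes, and its control averages within 0.01 of that of the 4 medium arrays for 10 of the 10. Over all 22206 transcript clusters the authors' deposited table met this for 533 treated averages (2.4%) and 22197 control averages (99.96%). In the authors' deposited table the treated average fell outside the range of the 4 Butyroside D arrays for 7 of the 10 genes, against 42% of all transcript clusters, and outside the range of all 8 arrays for 5 of the 10, against 19.8% of all (with a tolerance of 0.005). The 5 were Mdm2, Zmat3 and Gdf15 below, and Pmaip1 and Gadd45a above. Which samples the treated average stands for is not given in the sources used here.

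An FDR under 0.05 was given to 1 of the 10 genes in the authors' deposited table, against 1.56% of all transcript clusters. This was Gadd45a, with averages of 12.16 for Butyroside D and 10.90 for the control in the authors' deposited table, a 2.39-fold higher value with an FDR of 0.0128. No array reached that treated average, the highest Gadd45a signal of the 8 being 11.50, in medium. Mdm2 had averages of 14.10 for Butyroside D and 14.32 for the control in the authors' deposited table (FDR 0.664), and Trp53inp1 10.63 and 10.74 (FDR 0.909), so that both were below the control there and above it in the mean of the arrays. Ccng1, Sesn1 and Bbc3 had log2 changes of 0.04, -0.01 and -0.03 in the authors' deposited table. Phlda3 and Pmaip1 were at 0.36 and 0.19, and Zmat3 and Gdf15 at -0.31 and -0.19, all with an FDR of 0.511 or more in the authors' deposited table. Cdkn1a was 2.04-fold higher, with an FDR of 0.344, in the authors' deposited table. Both sources use the same medium arrays.

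**Figure D4:**
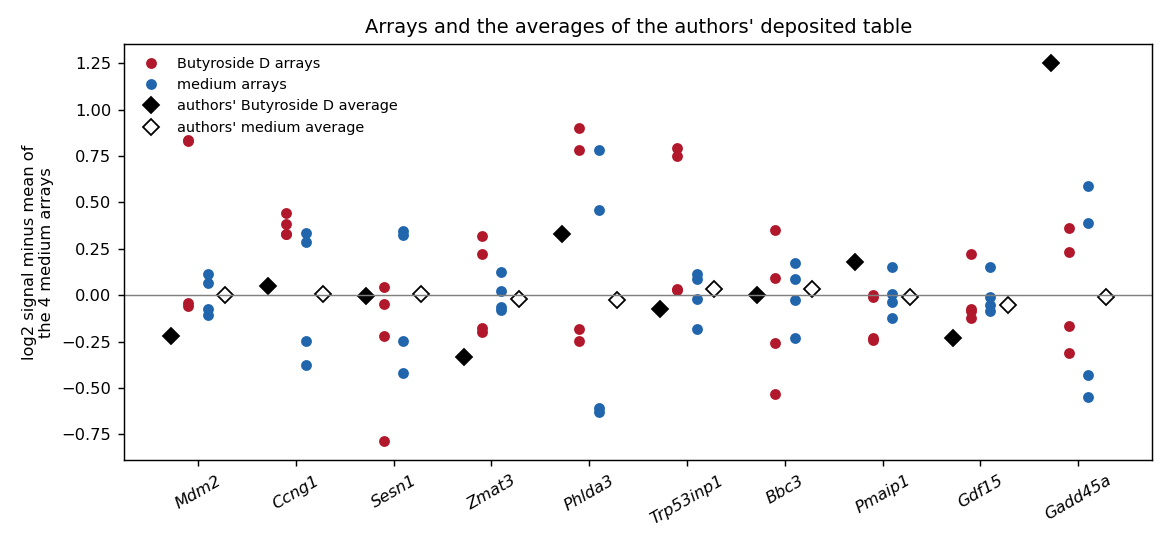
Log2 signal of the p53 target genes in the Butyroside D arrays and the medium arrays (dots) and the group averages of the authors' deposited table (diamonds), each minus the mean of the 4 medium arrays. The Gadd45a treated average, 12.16 before subtraction, lies above all 8 arrays, while the open diamonds of the medium average lie near 0 for all 10 genes.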

How the data were processed

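RNA of B16F10 cells was measured on Mouse Clariom S arrays. Values per array were deposited as log2 signals. The submitters' processing notes name RMA, Transcriptome Analysis Console and Affymetrix Expression Console, without roles. No coordinates are printed, the genome build being not given in the sources used here. The authors' deposited table gives log2 averages per group, a signed fold change (a score in which ratios below 1 are negative inverses, per the file headers), a p-value and an FDR from a test that is not named.

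From 28846 features 6640 control probe sets were set aside. Butyroside D minus medium was fitted with limma 3.58.1 in R 4.3.3 (lmFit, eBayes, two-sided, 6 residual degrees of freedom, no block) over 22206 transcript clusters, with Benjamini-Hochberg adjustment. Background is the median of 23 antigenomic probe sets per array. The fit was tested on simulated data with independent arrays. As the arrays here form close pairs, that test cannot tell how the p-values hold for them. Replicates are numbered by the labels. The number of arrays limits the precision.

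The genes and lists were chosen with earlier results of these data known. Other genes named are Cdkn1a, Trp53, the 4 with the smallest p per list, and the 6 most like the members' mean profile. Bax and Polk were added after their values were seen. All list genes were found, Cop1 as Rfwd2 through RefSeq synonyms, except the fibroblast marker Pdgfra, which has no transcript cluster of its own symbol alone. Promoter motifs were planned and not analysed here. The 20 alternatives covered scaling, dim transcript clusters, the variance model, blocks, arrays and pairs left out, and the authors' deposited table.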

Additional observations from a re-analysis of the deposited data

Results flagged for a closer look

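In 64 groups of 4 arrays (32 named genes in each condition), 1 held a lone array whose distance to its nearest neighbour exceeded the critical value of Dixon's test. This was Gdf15 with Butyroside D, where array 2 lay 0.30 above the next array, 0.858 of the range. All 8 signals of Gdf15 were below the background median of their array. Chance sets apart about 1 in 20 such groups if the arrays are independent, and these arrays come in close pairs.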

How the results depend on the processing

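The 10 p53 targets were at 0 calls in all alternatives but 2: limma without Butyroside D arrays 3 and 4 called 2 (Mdm2 and Trp53inp1), and the authors' deposited table held 1 call (Gadd45a). Over the alternatives and the 10 genes, 164 values kept their sign and their side of the threshold, 30 reversed and 3 passed it. Equal replicate numbers did not pair the samples (correlations of deviations from 0.07 to 0.08), and no label ties them. With the replicate block limma called 0 of the 10 and 0 of all transcript clusters, against 26 without it. All transcript clusters gave 0 calls with the close pair as a random block (correlation 0.808), with means of pairs and without medium arrays 3 and 4. They gave 48 with arrays centred on their median and 55 with dim transcript clusters left out, 881 without Butyroside D arrays 1 and 2, 5502 without arrays 3 and 4, 347 in the authors' deposited table, and 0 to 5 without single arrays, the 5 without Butyroside D array 4. The cause was not tested.

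Without Butyroside D arrays 3 and 4, calls numbered 14 of 32 other p53 targets, 8 of 16 regulators, 5 of 12 cell cycle genes and 7 of 12 ATF4 targets, against 24.8% of all transcript clusters. Without arrays 1 and 2 they numbered 2, 1, 1 and 0, against 3.97% of all. Centring, or leaving out dim transcript clusters, gave 1 call among the other targets (Btg2). The authors' deposited table had 2 regulators and 1 ATF4 target with an FDR under 0.05.

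Signs turned as follows, on the log2 scale. Without Butyroside D arrays 1 and 2, Mdm2 was at -0.051, Zmat3 at -0.19, Bbc3 at 0.22, Gadd45a at -0.24 and Cdc25c at 0.047. Without Butyroside D arrays 3 and 4, Phlda3 was at -0.22 and Gdf15 at 0.067. Without medium arrays 1 and 2, Zmat3 was at -0.032, Phlda3 at -0.30 and Bbc3 at 0.044. Without medium arrays 3 and 4, Sesn1 was at 0.083, Gdf15 at 0.033 and Gadd45a at -0.46. Added quantile normalization put Zmat3 at -0.0039 and Gadd45a at -0.029, and centring put Gdf15 at 0.0099. In the authors' deposited table, Mdm2 and Edar were at -0.21, Zmat3 at -0.31, Trp53inp1 at -0.11, Pmaip1 at 0.19, Cdc25c at 0.084 and Reln at -0.098. Without single arrays, Zmat3 ranged from -0.053 to 0.12, Bbc3 from -0.23 to 0.062, Gdf15 from -0.096 to 0.034 and Gadd45a from -0.16 to 0.22. Signals at background set no size for Bbc3, Pmaip1 and Gdf15.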
